A study of Homo sapiens with 12 samples.

Results

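The genes described here run muscle calcium handling and the coupling of excitation to contraction: RYR1, ATP2A1, ATP2A2, CACNA1S, CACNB1, CASQ1, CASQ2, TRDN and PVALB. They were chosen by name, as the gene probes of the array whose gene symbol is on that list, which gave 15 probes of 9 genes out of 41000 probes under 30238 gene names. The measurements come from 12 Agilent arrays on which Rh30 cultures were compared side by side, Rh30 being an established cell line of human alveolar rhabdomyosarcoma (ARMS) that carries the PAX3-FKHR fusion gene, also called PAX3-FOXO1. WT are the untransfected parental cells. KD1 is a clone in which PAX3-FKHR was lowered in part by a stably expressed short hairpin RNA. CON is a control clone that stably carries a non-targeting short hairpin RNA in the same vector, which WT lacks. Each clone stands for 1 line, so that the effect of the knockdown and the history of a clone cannot be told apart. CON and KD1 were kept in puromycin at 1 μg/mL, WT was not, and all were harvested 24 h after plating. There were 2 replicate RNA extracts per culture and 3 comparisons, KD1 vs CON, KD1 vs WT and WT vs CON, each hybridized with the dyes both ways round for each replicate, and every extract was on 4 arrays. The labels call the replicates biological. Nothing in the sources used here says more of how the replicate cultures were separated, and p-values measure the spread between them.

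In skeletal muscle, depolarization of the T-tubule membrane moves the voltage sensor CACNA1S, which together with its beta subunit CACNB1 is mechanically coupled to the calcium release channel RYR1 of the sarcoplasmic reticulum. Calcium released through RYR1 starts contraction, is buffered in the cytosol of fast fibers by PVALB, and is pumped back by the ATPases ATP2A1 (SERCA1) and ATP2A2 (SERCA2). Inside the reticulum it is bound by the calsequestrins CASQ1 and CASQ2, which are tied to the release channel by TRDN (triadin). Most of these genes are switched on as myoblasts differentiate, and rhabdomyosarcoma cells are known for a myogenic program that stops short of mature muscle.

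What each probe reads is a 60-base stretch of the transcript. The following probes are shown because they carry the results below, in lower case from 5′ to 3′ with no base singled out, and those of ATP2A2 and PVALB span an intron in the genome.
RYR1 A_23_P78867: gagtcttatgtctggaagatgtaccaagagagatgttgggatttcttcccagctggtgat
ATP2A2 A_23_P53603: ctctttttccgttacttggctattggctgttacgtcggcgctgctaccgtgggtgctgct
ATP2A1 A_23_P72462: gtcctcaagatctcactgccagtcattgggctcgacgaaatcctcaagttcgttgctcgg
CACNA1S A_23_P85765: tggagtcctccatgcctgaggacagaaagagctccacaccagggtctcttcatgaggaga
PVALB A_23_P17844: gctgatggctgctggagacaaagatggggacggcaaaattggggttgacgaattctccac
On build NCBI36, as given in the files, these lie at chr19:43769805-43769864, chr12:109265595-109267105 and chr16:28822190-28822249 on the plus strand and at chr1:199276056-199276115 and chr22:35526899-35539685 on the minus strand. RYR1 has another probe (A_24_P170544) at chr19:43682266-43682411, which also crosses an intron. The other ATP2A2 probes were A_24_P141786 at chr12:109267507-109267566 and A_24_P73290 at chr12:109273052-109273111. CACNB1 has a probe at chr17:34587798-34587857 (A_24_P91165) and a pair near the 3′ end of the transcript, A_24_P190190 and A_23_P405754, which share 41 of their 60 bases and are therefore not independent of each other. CASQ1 (A_23_P173), CASQ2 (A_23_P126582) and TRDN (A_23_P42548 and A_24_P316555) complete the set.

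Expression is given in 2 ways. A log2 ratio is the processed signal of the first culture over that of the second on the same array, averaged over a dye-swap pair, so that each comparison has 1 value per replicate. A signal is the intensity of an extract in arbitrary units, scaled between arrays and averaged over its 4 channels, and is compared only within a probe. A probe was tested in a comparison when at least 1 channel of each of the 4 arrays exceeded the 99th percentile of the negative controls. By limma with Benjamini-Hochberg adjustment over all tested probes, with a threshold of 0.05, 1.79% of 21937 probes were called for KD1 against CON, 1.05% of 24884 for KD1 against WT and 1.37% of 26595 in WT vs CON.

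Before the comparisons, 1 extract stands apart at epithelial genes, and another had the highest sum of fibroblast markers. The replicate 2 extract of WT was brighter than the other 5 at some epithelial genes: EPCAM, an epithelial adhesion molecule, had a signal of 164 there and between 3.41 and 3.93 elsewhere, and KRT19, a keratin, 442 there and between 26.1 and 49.0 elsewhere. CDH1 (E-cadherin) had 18.6 there and between 3.34 and 5.79 elsewhere. Summed over 8 fibroblast markers, the signal was 17372 and 8659 in WT, 10935 and 6608 in CON, and 9013 and 8428 in KD1. Each value of replicate 2 against WT rests on the extract with the epithelial signal. The value of replicate 1 is without it but rests on the extract with the highest fibroblast sum. The part of either extract in the results was not tested.

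None of the calcium-handling probes was called in a KD1 comparison. In KD1 vs CON 9 of the 15 probes were tested and 0 were called by limma at the adjusted threshold, with 0 at an unadjusted p under 0.05. In KD1 vs WT 10 were tested and 0 were called, with 1 at an unadjusted p under 0.05 (ATP2A2 A_24_P141786). In WT vs CON 12 were tested and 1 was called, PVALB, which was lower in WT, and 4 had an unadjusted p under 0.05. Over all probes tested 17.2%, 17.2% and 16.5% had an unadjusted p under 0.05 in these comparisons. Lower calls made up 0.594% of all probes tested in that comparison, and a single member cannot be set apart from that background. A lower signal can mean less RNA per cell or fewer cells that express the gene, and these cannot be told apart in bulk RNA.

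In the KD1 comparisons the members differed by replicate. In KD1 vs CON all 9 tested member probes were below 0 in replicate 1 and above 0 in replicate 2, whereas 28.3% of all tested probes had opposite signs in the replicates. In KD1 vs WT all 10 tested member probes were higher in replicate 2 than in replicate 1, by 0.28 to 1.91 on the log2 scale with a median of 1.22, and the median over all probes tested was -0.06. The 9 probes belong to 4 genes, RYR1, ATP2A1, ATP2A2 and CACNB1. The 10 belong to 5 genes, these and CASQ1, so probes of a gene repeat each other. In WT vs CON the median of the tested member probes was -0.25 in replicate 1 and -0.77 in replicate 2, beside -0.06 and -0.0015 over all probes tested. These are descriptions, because the genes were chosen with earlier results of these data known.

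**Figure D1:**
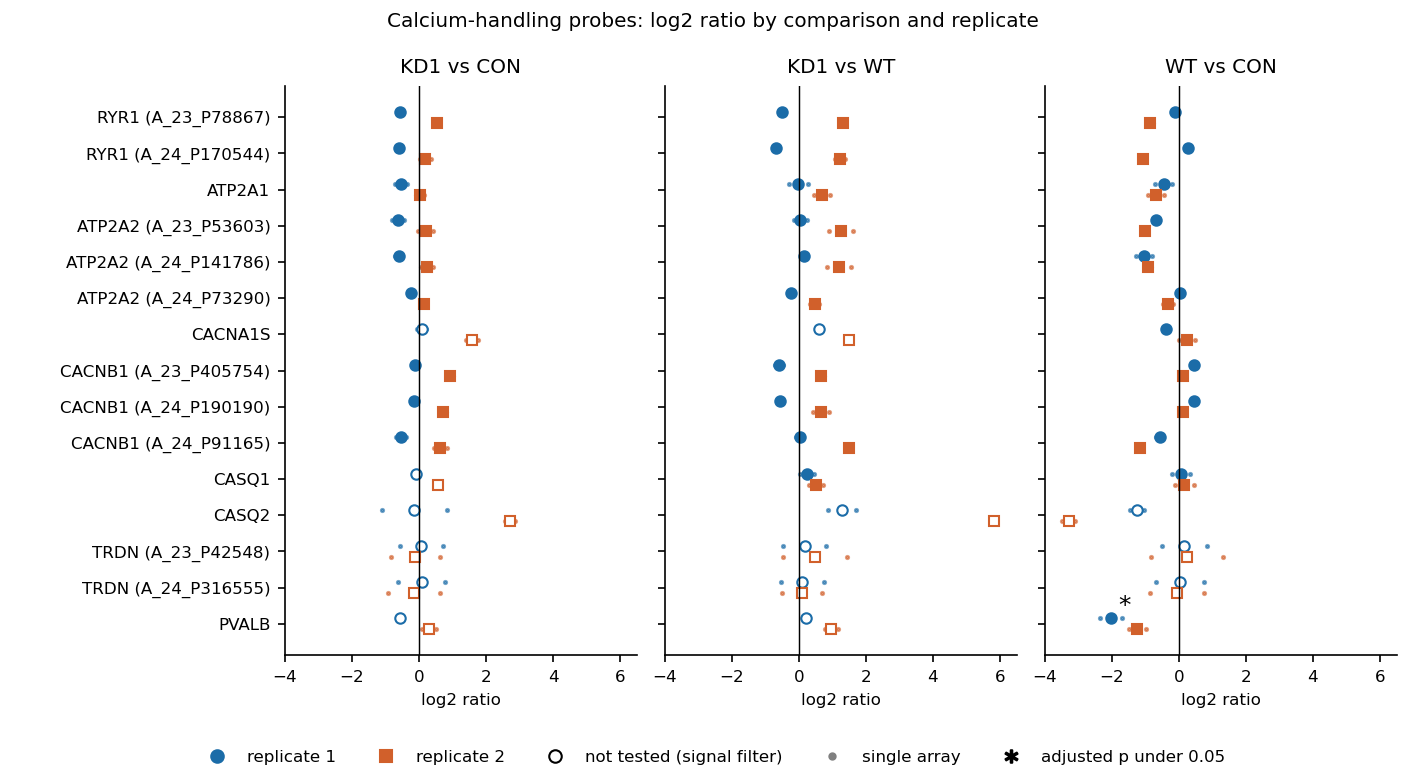
Log2 ratio (x axis) of each calcium-handling probe (y axis) in KD1 vs CON, KD1 vs WT and WT vs CON. Large circles and squares are replicates 1 and 2, each the mean of a dye-swap pair, and small dots are single arrays. Open symbols did not pass the signal filter and were not tested, and the star marks limma adjusted p under 0.05. In both KD1 panels nearly every square lies to the right of its circle, TRDN apart, and the star stands at PVALB in WT vs CON.

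RYR1 is the channel through which calcium leaves the sarcoplasmic reticulum. The signal of its brighter probe (A_23_P78867) was 1058 and 889 in the replicate 1 and 2 extracts of WT, 1167 and 1572 in those of CON, and 778 and 2289 in those of KD1. The KD1 extracts thus held both the lowest and the highest signal of the 6, and the range of KD1 covered those of CON and WT. The log2 ratio of KD1 vs CON was -0.56 and 0.54 (mean -0.01 ± 0.78, SD, n = 2; limma adjusted p = 0.994). That of KD1 vs WT was -0.50 and 1.31 (mean 0.41 ± 1.28; adjusted p = 0.649 by limma), with both arrays of a replicate on the same side of 0. WT vs CON gave -0.12 and -0.86 (mean -0.49 ± 0.53, limma adjusted p = 0.589). The dimmer RYR1 probe (A_24_P170544), which lies in an earlier part of the transcript, had values of -0.61 and 0.19 for KD1 vs CON, -0.69 and 1.22 for KD1 vs WT, and 0.27 and -1.06 in WT vs CON. The 2 probes of RYR1 had the same sign in every replicate of both KD1 comparisons, and in replicate 1 of WT vs CON they lay on opposite sides of 0.

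The pumps return calcium to the reticulum, ATP2A1 in fast muscle and ATP2A2 in slow and cardiac muscle and, in another isoform, in most cells. The brightest ATP2A2 probe (A_23_P53603) had a signal of 1796 and 1471 in WT, of 2931 and 2931 in CON, and of 1865 and 3600 in KD1. At this probe the highest of the 8 channels of WT was 1865 and the lowest of the 8 channels of CON was 2506. These channels are repeat readings of 2 extracts per culture. The share of all probes whose channels part in this way was not counted. The log2 ratio of WT vs CON was -0.69 and -1.02, below 0 on all 4 arrays, with a mean of -0.86 ± 0.23 (SD, n = 2, SE 0.30, unadjusted p = 0.023, limma adjusted p = 0.222). KD1 vs WT gave 0.05 and 1.26 (limma adjusted p = 0.320) and KD1 vs CON -0.62 and 0.20 (limma adjusted p = 0.795), so the KD1 extract of replicate 1 was near WT and that of replicate 2 was above CON. The probe A_24_P141786 gave nearly the same picture, with -1.04 and -0.92 in WT vs CON (limma adjusted p = 0.154) and 0.15 and 1.20 in KD1 vs WT (limma adjusted p = 0.285).

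The probe of ATP2A2 that lies furthest along the transcript (A_24_P73290) differed from the others. Its log2 ratio of WT vs CON was 0.02 and -0.33 and that of KD1 vs WT -0.24 and 0.47. Its channels overlapped between WT (784 to 1220) and CON (815 to 1407). The mean for WT vs CON was -0.15 ± 0.25 (SD, n = 2) at this probe and -0.86 and -0.98 at the other two. The array annotation gives this probe 3 RefSeq transcripts and each of the others 1, and the difference between the probes was not tested.

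ATP2A1 had a signal of 124 and 105 in WT, 174 and 163 in CON, and 116 and 176 in KD1. Its log2 ratio of WT vs CON was -0.44 and -0.68, below 0 on all 4 arrays, with a mean of -0.56 ± 0.17 (SD, n = 2, unadjusted p = 0.051, limma adjusted p = 0.305). For KD1 vs CON it was -0.53 and 0.04, and for KD1 vs WT -0.01 and 0.70, neither of which passed the test. At the brightest probe of each pump gene WT was below CON in both replicates, and neither difference passed the adjusted threshold.

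CACNA1S, the pore-forming subunit and voltage sensor, was dim. Its signal was 25.6 and 33.0 in WT, 33.5 and 29.8 in CON, and 38.0 and 129 in KD1, and it was well above background in all 8 channels of KD1, in 7 of 8 of CON and in 6 of 8 of WT. The replicate 2 extract of KD1 stood 3.39-fold above that of replicate 1, and the other 5 extracts lay close together. The log2 ratio of KD1 was 0.08 and 1.58 against CON and 0.61 and 1.51 against WT, where for the latter all 4 arrays were above 0. Neither was tested, since 2 and 3 of the 4 arrays exceeded the negative controls. That cutoff ranged between arrays from 1.81 to 40.6 in Cy3 and from 2.53 to 40.6 in Cy5. With the filter on spots well above background both were tested, at an unadjusted p under 0.05 by limma, and neither was called. The smallest limma adjusted p of any member there was 0.302 against CON and 0.203 against WT. WT vs CON gave -0.38 and 0.24 (limma adjusted p = 0.948).

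CACNB1 encodes the beta subunit that carries the channel to the membrane. The overlapping pair of 3′ probes agreed closely, with a signal for A_24_P190190 of 1839 and 1398 in WT, 1328 and 1290 in CON, and 1273 and 2271 in KD1. This probe gave -0.15 and 0.72 for KD1 against CON, -0.56 and 0.67 for KD1 against WT, and 0.45 and 0.12 in WT vs CON, with adjusted p of 0.702, 0.950 and 0.703 by limma. The coding probe A_24_P91165 had the opposite sign in WT vs CON, at -0.57 and -1.16 (mean -0.86 ± 0.42, SD, n = 2, limma adjusted p = 0.290), and gave 0.02 and 1.51 in KD1 vs WT. At that probe the signal was 452 and 357 in WT against 640 and 704 in CON, whereas at the 3′ probe WT was the brighter culture. No statement on CACNB1 in WT vs CON holds for all of its probes.

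**Figure D2:**
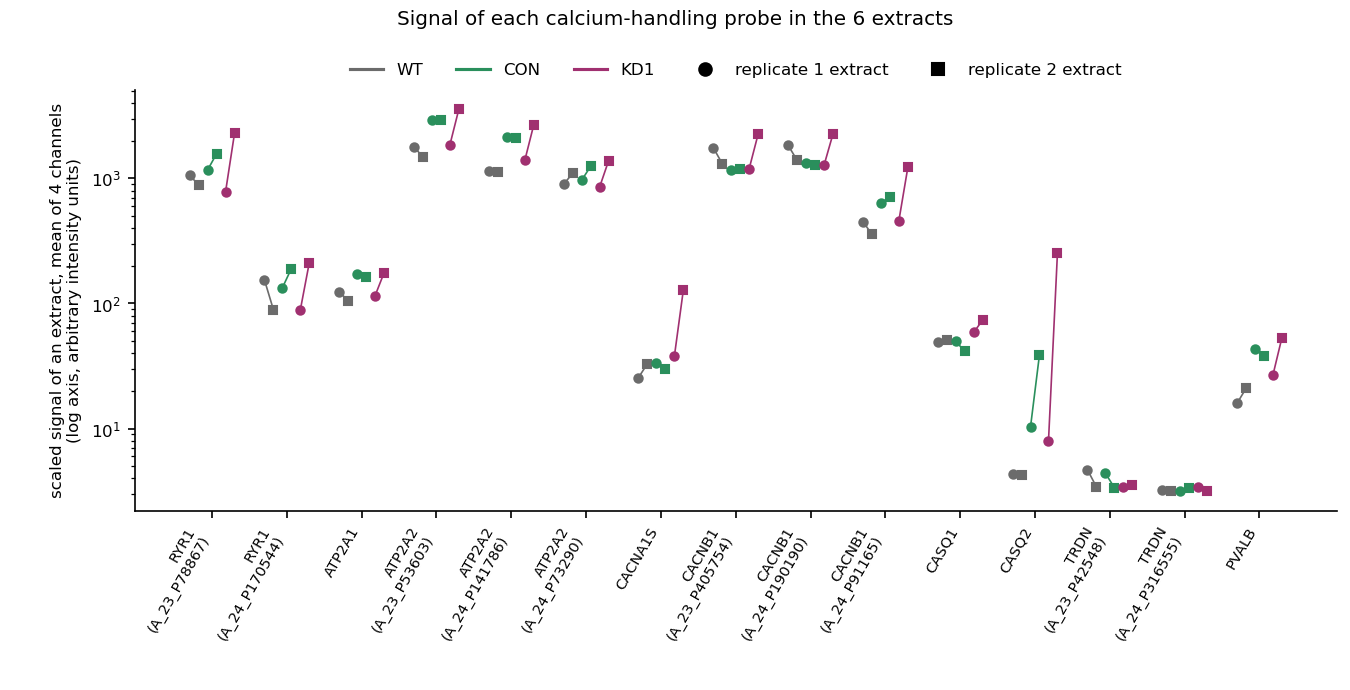
Scaled signal (log axis, arbitrary intensity units, mean of 4 channels) of each calcium-handling probe (x axis) in the replicate 1 (circle) and replicate 2 (square) extract of WT, CON and KD1. Heights are to be compared within a probe only. The line of KD1 climbs steeply at nearly all probes, most at CASQ2 (7.88 to 253), while TRDN lies flat between 3.14 and 4.69.

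The calsequestrins bind calcium inside the store, CASQ1 in fast skeletal muscle and CASQ2 in cardiac and slow muscle. CASQ1 was dim and nearly level, with a signal of 48.8 and 51.0 in WT, 49.8 and 41.6 in CON, and 58.6 and 73.7 in KD1. Its log2 ratio of KD1 vs WT was 0.24 and 0.51, above 0 on all 4 arrays (mean 0.38 ± 0.20, SD, n = 2, limma adjusted p = 0.432), and that of WT vs CON 0.06 and 0.16 (limma adjusted p = 0.861). KD1 vs CON was not tested, at -0.09 and 0.56.

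CASQ2 had the widest span of any member. It was not well above background in any of the 8 channels of WT, where the signal was 4.30 and 4.26. In CON the signal was 10.3 and 39.0 and in KD1 7.88 and 253, so the replicate 1 extracts of all cultures were near background and the KD1 extract of replicate 2 stood alone. The log2 ratio of KD1 vs WT was 1.29 and 5.82, that of KD1 vs CON -0.14 and 2.71, and that of WT vs CON -1.25 and -3.29. It was tested in no comparison, since 2 or 3 of the 4 arrays exceeded the negative controls. Set against the lowest signal well above background in the WT channels, the mean of KD1 over both replicates was at least 3.48-fold higher, and this rests on replicate 2, since KD1 was not well above background on the arrays of replicate 1. With normexp background correction the mean log2 ratio of KD1 vs WT was 0.66 in place of 3.56.

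TRDN, the anchor of calsequestrin at the junction, was well above background in 0 of 8 channels of every culture at both probes. Its signal lay between 3.14 and 4.69 in the 6 extracts, and it was not tested. The probes do not separate an absent transcript from one too scarce or too poorly bound to be read.

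PVALB is a cytosolic buffer that speeds the relaxation of fast fibers. Its log2 ratio of WT vs CON was -2.03 and -1.23, below 0 on all 4 arrays (between -2.36 and -0.98), with a mean of -1.63 ± 0.56 (SD, n = 2, SE 0.29, limma adjusted p = 0.0488). WT was not well above background on any of these 4 arrays, so the size of the difference is not settled there. With normexp background correction the mean was -0.15 (limma adjusted p = 0.530), and 5 further ways of scaling, filtering or modeling also took it past the threshold. On the arrays with KD1, where PVALB was well above background in WT on 4 of 4, the same extracts differed by less: KD1 vs CON minus KD1 vs WT gives -0.77 and -0.66. The signal over all arrays was 15.9 and 20.9 in WT, 43.6 and 38.3 in CON, and 26.7 and 53.2 in KD1. KD1 vs CON, at -0.56 and 0.30, and KD1 vs WT, at 0.21 and 0.96, were not tested.

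The same check, WT vs CON read directly against WT vs CON read through KD1, was made for every member, since the extracts are the same and the arrays are not. Over 21870 probes that passed the filter in all comparisons the median absolute gap between the routes was 0.06 and the 95th percentile 0.24. For the 9 member probes among them the gap lay between 0.0028 and 0.29 in a replicate. CASQ2 closed within 0.18 in both replicates, although its ratios were the largest of all. PVALB missed by -1.26 in replicate 1 and by -0.57 in replicate 2, and over the 4671 probes that passed the filter in WT vs CON and not in KD1 vs CON, as PVALB did, the median absolute gap was 0.22 and the 95th percentile 0.80.

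**Figure D3:**
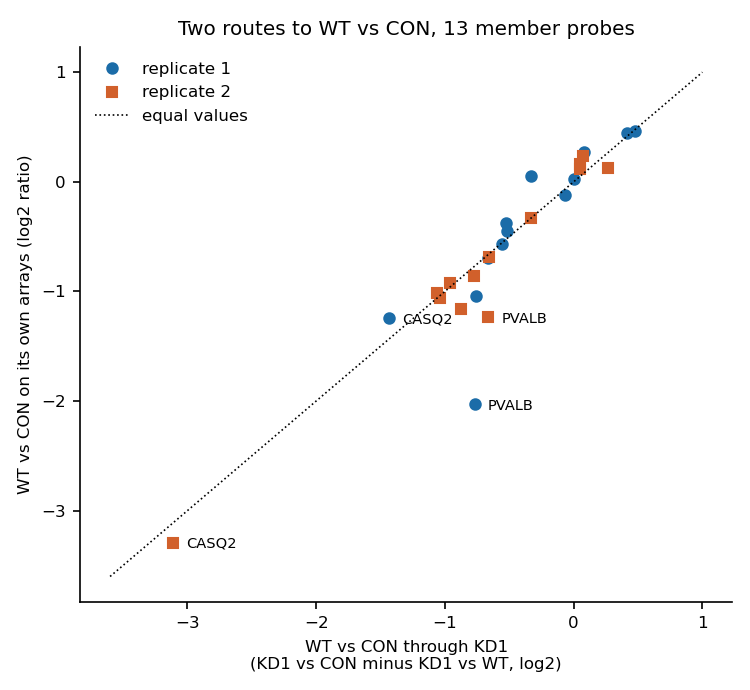
WT vs CON on its own arrays (y axis, log2 ratio) against the value through KD1 (x axis, KD1 vs CON minus KD1 vs WT, log2) for 13 member probes, TRDN left out. Circles are replicate 1, squares replicate 2 and the dotted line marks equal values. Most points lie along the line, CASQ2 included, and PVALB falls below it by 1.26 and 0.57.

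Because the ratios of a replicate share their extracts, the extracts themselves were set side by side. Between the KD1 extracts the signal was higher in replicate 2 at all 9 member probes that passed the filter in all 3 comparisons, by 0.61 to 1.56 on the log2 scale with a median of 0.95. Over all 21870 such probes the median was -0.05 and 44.7% were higher in replicate 2. A difference of over 2-fold was found at 3 of the 9 member probes and at 3.26% of all. The 9 member probes belong to 4 genes. Between the CON extracts the member median was 0.03 and between the WT extracts -0.29, and none of the 9 was over 2-fold higher in either. The fold of replicate 2 over replicate 1 in KD1 was 2.94 for RYR1, 1.93 for ATP2A2, 1.52 for ATP2A1 and 1.78 for CACNB1 at their brightest probes. The KD1 extracts of the 2 replicates were on different slides, so extract and slide cannot be told apart for KD1, and with 1 extract per replicate the difference has no test. In replicate 2 the ratios of KD1 vs CON and of KD1 vs WT were above 0 at all 9 of these probes. These are the ratios given above, and the share of all probes above 0 in both was not counted. The part of the slide was not tested.

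**Figure D4:**
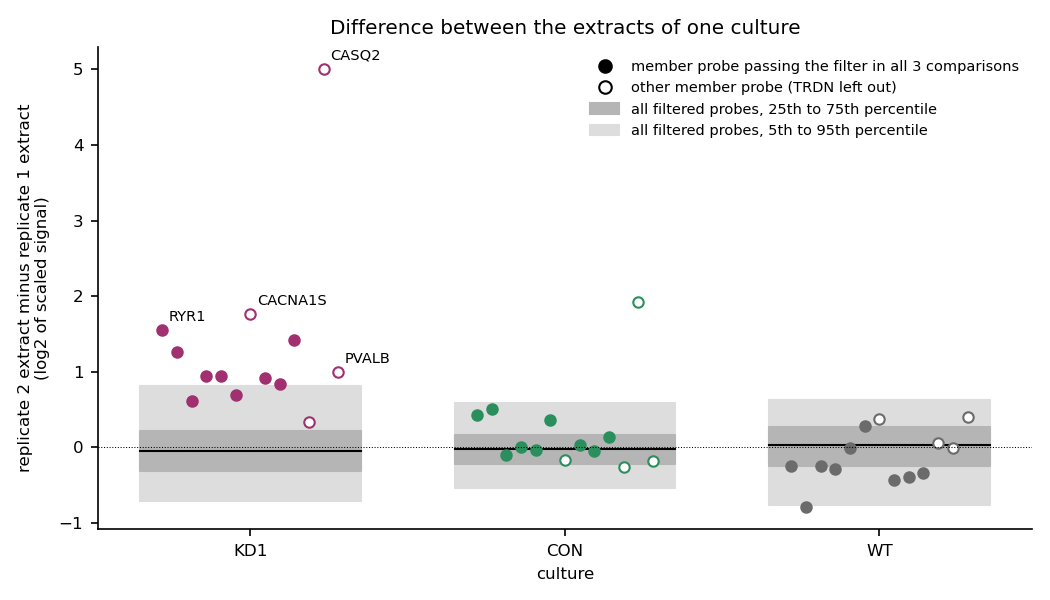
Replicate 2 extract minus replicate 1 extract (y axis, log2 of scaled signal) for member probes in KD1, CON and WT (x axis). Filled points passed the signal filter in all comparisons, open points did not, and gray bands hold the 25th to 75th and the 5th to 95th percentiles of all 21870 filtered probes. In KD1 the filled points lie between 0.61 and 1.56, above the median of all probes, in CON they lie between -0.09 and 0.51, and in WT 1 of 9 lies above 0.

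Genes of differentiated muscle were for the most part also brighter in the replicate 2 extract of KD1, and the transcription factors and other genes of muscle identity varied. Of 15 muscle markers fixed as a list, 8 are genes of differentiated muscle, of which 6 passed the filter in all comparisons. In KD1 their replicate 2 extract was above that of replicate 1 at 5 of 6, with a median of 2.15, and the medians in CON and WT were 0.26 and -0.12. Of the muscle identity genes 4 of 6 were higher in the replicate 2 extract of KD1, with a median of 0.55 and a range from -1.14 (MYF5) to 0.91, and all 6 were higher in that of CON, with a median of 0.29. MYF5, an early myogenic factor, had a signal of 3384 and 1535 in KD1, and MYOD1, the founding member of that family, 25861 and 23782. The 4 identity genes that were higher in replicate 2 had 1309 and 2425 (MYOG) and 63721 and 119579 (DES). MEF2C had 4368 and 6885, and CHRNA1 21550 and 29178. TNNC2, the calcium-binding subunit of fast troponin, gave log2 ratios of 0.07 and 2.39 against CON, and 1.26 and 3.16 against WT. TTN, the sarcomere's molecular spring, had 0.33 and 2.28 against CON, and 0.73 and 3.38 against WT. Both met the criteria of the study, a mean of at least 2-fold in both KD1 comparisons with every array in the same direction, which 1.38% of 21882 probes met and none of the calcium-handling probes did. Neither passed limma, with adjusted p of 0.265 and 0.279 against CON, and 0.101 and 0.139 against WT.

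Of the 15 muscle markers 13 were tested in KD1 vs WT, where 2 rose by limma (1.17% of all genes were called), and 14 in WT vs CON (1.49% of all genes). MYH8, the perinatal myosin heavy chain, gave 2.50 and 4.20 on the log2 scale (mean 3.35 ± 1.20, SD, n = 2, adjusted p = 0.0278, limma) and MYL1, an essential light chain of fast myosin, one of 1.66 and 3.27 (adjusted p = 0.0469, limma). In the latter 2 were lower, MYL1 at -2.39 and -2.64 (adjusted p = 0.0373, limma) and MYOG, the transcription factor myogenin, at -1.96 and -1.49 (adjusted p = 0.0185, limma). With normexp none of these was called (limma adjusted p = 0.226 for MYH8, 0.154 and 0.141 for MYL1 and 0.110 for MYOG). The mean of MYH8 was then 1.88 in place of 3.35. MYH8 was well above background in 5 of 8 channels of WT, so the size of its difference is not settled. The MYH8 and MYL1 calls were also lost with median centring, no filter on dim probes, extract values by culture and replicate, and separate channels. There the limma adjusted p lay between 0.0588 and 0.306. MYOG was also lost with separate channels and with slide as a dye effect (limma adjusted p = 0.196 and 0.0627). Over the 8 differentiation genes, all tested in WT vs CON, 6 were below 0 in both replicates and the median was -0.91. Of the 7 members tested by their brightest probe 4 were below 0 in both replicates with a median of -0.49. Over all genes 6352 of 19123 were below 0 in both replicates, with a median of -0.03. The part of the wider muscle program in the members' values was not tested.

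The wider calcium pathway was described by a list of 80 genes, of which 77 are on the array. In KD1 vs CON 54 were tested by their brightest probe and 0 were called, beside 1.91% of all genes. In KD1 vs WT 60 were tested and 0 were called, beside 1.17%, and in WT vs CON 61 were tested and 1 was called, beside 1.49%. The medians were 0.04, 0.07 and 0.05, beside -0.02, 0.0049 and -0.03 over all genes. HSPA5, the chaperone BiP, which also holds calcium in the endoplasmic reticulum, was the gene called: it was higher in WT than in CON, with log2 ratios of 1.45 and 1.05 (mean 1.25 ± 0.28, SD, n = 2, limma adjusted p = 0.0482), and its signal was 24118 and 20634 in WT, 8903 and 9773 in CON, and 16727 and 20102 in KD1. With normexp its limma adjusted p was 0.119. The call was also lost with median centring, extract values by culture and replicate, and separate channels. Dropping the filter on dim probes, or setting it on spots well above background, lost it too. In these 5 settings the limma adjusted p lay between 0.0541 and 0.0940.

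TMEM38A, the monovalent cation channel that balances charge while calcium leaves the reticulum, was the only gene of that list to meet the criteria of the study as applied here, with the signal filter on all 4 arrays of both KD1 comparisons. Its signal was 644 and 524 in WT, 533 and 1373 in CON, and 952 and 3206 in KD1. The log2 ratio of KD1 was 0.91 and 1.24 against CON (limma adjusted p = 0.255), while against WT it was 0.61 and 2.53 (limma adjusted p = 0.145), above 0 on all arrays. Its dimmer probe gave a mean of 0.69 and 0.98. By their brightest probes, the release channels, pumps, voltage-sensor subunits, junction proteins, store proteins, buffers, store-operated entry genes, excitability genes, calcium signaling genes and mitochondrial uptake genes held 0 calls in either KD1 comparison. Among the dimmer probes 1 was called in KD1 vs CON, A_23_P397238 of FKBP1A, which binds and stabilizes RYR1, at -1.07 and -1.81 (limma adjusted p = 0.0440), while the brightest of that gene gave 0.14 and 0.15. The call was lost with normexp (mean -0.62, limma adjusted p = 0.145) and with separate channels (limma adjusted p = 0.124). So it was with extract values by culture and replicate and with the comparison alone. Dropping the filter on dim probes, or setting it on spots well above background, also lost it. ATP2A3, the pump of non-muscle cells, was chosen after its values were seen: its brighter probe had a signal of 6.10 and 4.77 in KD1 against 33.1 and 108 in CON and 60.6 and 33.9 in WT, so that KD1 had log2 ratios of -2.41 and -3.92 against CON, and -3.43 and -2.98 against WT, below 0 on every array. At that probe KD1 was well above background in 0 of 8 channels, so the size of the difference is not settled. The dimmer ATP2A3 probe, near background, had 5.85 and 4.14 in KD1, 9.80 and 11.4 in CON, and 6.11 and 6.81 in WT. By its ratios the brighter probe was over 2-fold lower in both comparisons. The signal filter on all 4 arrays alone kept it from the test and from the criteria as applied here. The study's own list of genes lowered in KD1 includes ATP2A3.

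For ATP2A2, the member with the widest range over the 6 replicate values among those that passed the filter throughout, the most similar genes were sought over those 6 values among 15705 genes. DNAJB5 differed from it by a root mean square of 0.11, RBM24 by 0.13 and HIST2H2AA4 by 0.16. DNAJB5, a heat shock protein of the DNAJ family, gave -0.63 and 0.28 for KD1 against CON, 0.20 and 1.16 for KD1 against WT, and -0.83 and -0.93 in WT vs CON. RBM24, an RNA-binding protein of striated muscle, had -0.42 and 0.20, 0.25 and 1.15, and -0.60 and -0.94. Among the members ATP2A1 differed from ATP2A2 by 0.30 (rank 67), RYR1 by 0.36 (rank 154) and CACNB1 by 0.80 (rank 6277). The 6 values come from 6 extracts and are not independent of each other.

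The promoters of the members were searched for the letters bound by muscle factors, in windows from 250 bases before to 50 bases after each start in RefSeq (GRCh38.p14), on both strands. All 9 genes matched, with 12 windows. The general E-box CANNTG was in 9 of 12 windows and in 68.7% of 35116 windows of all genes. The form CAGCTG, which is 1 case of it, was in 2 of 12 and in 17.9% of all. ATTA was in 6 of 12 and in 50.2%, and the MEF2 word CTATTTTTA was in 0 of 12 and in 0.453%. These shares describe letters only. The windows that hold CAGCTG are those of CACNA1S and of 1 start of ATP2A1, and are shown for that reason, with every CANNTG in capitals.
CACNA1S, chr1:201112377-201112676, minus strand: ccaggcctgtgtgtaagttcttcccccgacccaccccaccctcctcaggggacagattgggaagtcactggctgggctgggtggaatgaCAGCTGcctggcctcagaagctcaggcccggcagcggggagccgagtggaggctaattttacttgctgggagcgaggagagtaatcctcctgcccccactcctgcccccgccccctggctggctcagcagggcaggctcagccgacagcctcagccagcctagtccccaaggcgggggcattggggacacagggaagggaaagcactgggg
ATP2A1, chr16:28878238-28878537, plus strand: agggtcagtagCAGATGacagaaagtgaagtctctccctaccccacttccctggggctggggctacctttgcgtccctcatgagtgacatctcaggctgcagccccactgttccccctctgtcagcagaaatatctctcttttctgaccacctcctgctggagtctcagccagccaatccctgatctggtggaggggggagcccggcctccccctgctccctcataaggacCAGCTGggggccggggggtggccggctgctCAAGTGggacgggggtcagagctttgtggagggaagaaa
Both genes were brighter in the replicate 2 than in the replicate 1 extract of KD1, as were most other member probes. Any link between these letters and the signal was not tested.

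As checks of the labels, the array has 3 probes of PAX3 and 2 of FOXO1, none of which is annotated to the fusion junction. The brightest PAX3 probe gave -0.39 and -0.46 for KD1 against CON and -0.45 and -0.33 against WT, and the brightest FOXO1 probe -0.26 and -0.58 and -0.79 and -0.41. All were below 0 in both replicates, and none passed the test (limma adjusted p between 0.273 and 0.432). A PAX3 probe further along the gene (A_23_P209499) gave 0.16 and -0.33 against CON and 0.26 and -0.15 against WT. Of the 15 muscle markers 14 were well above background in all 8 channels of KD1, 13 in CON and 12 in WT, with MYF6 in none of WT. Of 8 fibroblast markers 4 were so in each culture, with LUM and FAP in none, and of 5 epithelial markers 3 were so in KD1 and WT and 2 in CON, KRT8 and KRT18 among them. Of 5 leukocyte markers 2 were so in each culture (CD3E and CD14), and PTPRC was in no channel. The epithelial sum was 2278 and 3447 in WT, 1632 and 1857 in CON, and 1606 and 1892 in KD1. The summed signal of the muscle markers was 183437 and 264015 in KD1, 179579 and 201046 in CON, and 172464 and 175185 in WT. The share of spots well above background ranged from 71.1% to 73.6% in Cy3 and from 64.4% to 67.8% in Cy5.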

How the data were processed

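Rh30 cultures were compared on 12 two-color Agilent arrays. The authors extracted spots with Agilent Feature Extraction 10.5.1.1 and deposited, per spot, linear intensity values (processed signals after background subtraction, scaling and lowess within the array), a log10 ratio of red over green, and in a series table the log2 ratio per probe. The deposited log10 and log2 ratios differed by at most 5.35e-06 after conversion. The dye of each culture came from the labels.

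Log2 ratios were computed from the deposited processed signals, leaving out spots that the scanner software marked as outliers (95 to 188 on an array), and the arrays of a dye swap were averaged. The number of extracts, 2 per culture, and of arrays limits the precision. Extract signals were obtained after Aquantile scaling of both channels. limma 3.58.1 in R 4.3.3 was fitted to the 6 dye-swap averages of all probes with a coefficient per comparison and 2 residual degrees of freedom, because 3 extracts give the 3 comparisons of a replicate. Tests are two-sided. The fit was tested on simulated data. The filter used 153 negative controls. A bound ("at least") sets the brighter culture against the higher of the dim signal and the lowest signal well above background. A gene is represented by its brightest probe. Genes other than the members were named when their brightest probe was called or met the criteria of the study, with the fusion's genes and the 3 genes most like ATP2A2. Outside that rule, and with their values known, other markers of the lists were named, among them EPCAM, KRT19, CDH1, MYF5 and MYOD1. So were FKBP1A, for a call at a dimmer probe, and ATP2A3. The arrays with KD1 lay on separate slides by replicate, and those of WT vs CON on a single slide. The members and lists were chosen with earlier results of these data known, and the check through KD1 and the extract differences were added after the data were seen. Python 3.11.15 with numpy 2.4.6, pandas 2.3.3 and matplotlib 3.10.9 was also used. Alternatives were normexp with an offset of 50 and loess, median centring, the series table, outlier spots kept, other filters and other fits, each replicate left out, every probe in place of the brightest, and the criteria of the study.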

Additional observations from a re-analysis of the deposited data

How the results depend on the processing

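The 0 calls among the member probes for KD1 against CON and for KD1 against WT were also found under each of the 10 other settings with a test. In WT vs CON 1 member probe, PVALB, was called, and 0 were called with normexp and loess, with median centring, without a filter on dim probes, with the filter on spots well above background, with extract values by culture and replicate, and with separate channels and no replicate block. There the mean log2 ratio of PVALB was -0.15, -1.53, -1.63, -1.63, -1.33 and -1.16, with a limma adjusted p of 0.530, 0.102, 0.0981, 0.0540, 0.127 and 0.219. The call was kept with the series table, with outlier spots kept, with the comparison alone and with slide as a dye effect with the replicate block (limma adjusted p = 0.0249). Without replicate 1 or replicate 2 the value was -1.23 or -2.03, with no test. The replicates are paired on the arrays, while the deviations of same-numbered extracts correlated across 21870 probes with 0.54 for KD1 and CON, -0.07 for KD1 and WT and -0.02 for WT and CON. Among uncalled values, CACNA1S in WT vs CON turned to 0.055 with median centring and CACNB1 A_24_P91165 in KD1 vs CON to -0.0024 with normexp. The cause of these changes was not tested. Over all probes normexp left 26, 1 and 2 calls in KD1 vs CON, KD1 vs WT and WT vs CON. In KD1 vs CON the 9 tested member probes had opposite signs in the replicates and in KD1 vs WT 6 of 10, and that spread limits these values, as signal near background limits CASQ2, CACNA1S and TRDN.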
